A study of Mus musculus with 4 samples.

Results

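Collagens are secreted proteins built from alpha chains that wind around each other into a long helix, and each chain has its own gene. The genes described here are all those whose symbol has the form Col, a type number, the letter a and a chain number, found through the transcript accessions of the array probes. There were 43 such genes among 20660 genes with a named probe, represented by 63 probes. By the structures that the chains form, 11 were grouped as fibrillar chains, 8 as basement membrane chains and 24 as other chains. The brightest probe, on average over the arrays, stood for a gene with several, and 32 of the 43 genes were bright enough to be tested.

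The arrays held RNA of mouse EB5 embryonic stem (ES) cells with a Hoxb6-Venus reporter, a fluorescent protein that reports the homeobox gene Hoxb6. The cells had differentiated for 6 days on OP9 cells, a stromal feeder line, before they were stained and sorted for Flk-1, a VEGF receptor whose gene is Kdr. The 2 groups were the Flk-1+ Venus-negative and the Flk-1+ Venus-positive fraction, with 2 single-colour Agilent arrays each. Both fractions therefore share the cell line, the reporter, the feeder cells and the selection for Flk-1. The reporter was carried in a single named line, and the labels do not say whether it is 1 clone. They also do not say whether the replicates were separate cultures or whether feeder cells were removed. The p-values set the difference between the fractions against the spread of these samples within a fraction, and that spread may be only technical.

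All 4 arrays lay on 1 slide. The replicate number coincided with the row on the slide, and the fraction coincided with the column: both Venus-negative arrays were in column 2 and both Venus-positive arrays in column 3. Column and fraction cannot be told apart. Between 50.7% and 53.0% of spots lay well above background on each array, 0 spots were saturated, and the small number of arrays limits precision. Kdr was bright in both fractions (normalised log2 signal 5.63 ± 0.12 SD without and 6.07 ± 0.02 SD with reporter activity, n = 2 each), and Hoxb6 was 2.02-fold higher in Venus-positive cells with a limma adjusted p of 0.0717. The normalised log2 signal is the log2 of an array's processed signal minus the array's 75th percentile. It compares arrays for 1 probe and does not rank different genes.

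Fibrillar collagens (types I, II, III, V and XI and the minor types XXIV and XXVII) assemble into the cable-like fibrils of connective tissue, cartilage and vessel walls. Type IV collagen forms the sheet-like network of basement membranes, the thin matrix on which endothelial cells and other epithelia rest, and the multiplexins XV and XVIII sit in or beside that network. The remaining types decorate fibrils (the FACIT collagens), form beaded filaments or hexagonal networks, anchor the skin's basement membrane, or span the cell membrane. In the early embryo, mesoderm and the endothelium that comes from it deposit type IV collagen in their first basement membranes.

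Promoter windows of RefSeq (build GRCm38.p6) were found for 35 of the 43 genes, in 38 windows of 300 bases that end just after a transcript start. Col4a1 and Col4a2 are neighbours that are transcribed away from each other. Their windows are shown because these chains assemble in the same molecule and are set side by side below. Capitals mark the 78 bases that both windows share, read on opposite strands. Col4a1 lies at chr8:11312777-11313076 on the minus strand and Col4a2 at chr8:11312555-11312854 on the plus strand.
Col4a1: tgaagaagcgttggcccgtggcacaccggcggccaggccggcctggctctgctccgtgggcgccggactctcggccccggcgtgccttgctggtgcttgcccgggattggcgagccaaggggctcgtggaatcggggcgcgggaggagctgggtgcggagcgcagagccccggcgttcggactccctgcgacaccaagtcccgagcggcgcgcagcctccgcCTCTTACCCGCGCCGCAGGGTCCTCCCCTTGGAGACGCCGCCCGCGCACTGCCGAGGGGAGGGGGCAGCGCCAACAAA
Col4a2: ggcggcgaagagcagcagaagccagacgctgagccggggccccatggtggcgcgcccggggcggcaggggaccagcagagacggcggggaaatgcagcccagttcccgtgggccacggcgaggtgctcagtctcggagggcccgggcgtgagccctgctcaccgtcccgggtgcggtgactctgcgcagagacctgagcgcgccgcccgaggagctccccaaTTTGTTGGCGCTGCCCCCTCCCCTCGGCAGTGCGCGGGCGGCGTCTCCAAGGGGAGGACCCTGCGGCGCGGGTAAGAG

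Col13a1 and Col25a1 are shown because both encode transmembrane collagens and stood near opposite ends of the measured changes. Capitals mark matches, on either strand, to the GC box GGGCGG, the CCAAT box CCAAT and the TATA box TATAAA. The Col13a1 window (chr10:61979059-61979358, minus strand) held 1 TATA box match and 29 CpG dinucleotides. That of Col25a1 (chr3:130180595-130180894, plus strand) held 2 GC box matches, 1 CCAAT match and 23 CpG dinucleotides.
Col13a1: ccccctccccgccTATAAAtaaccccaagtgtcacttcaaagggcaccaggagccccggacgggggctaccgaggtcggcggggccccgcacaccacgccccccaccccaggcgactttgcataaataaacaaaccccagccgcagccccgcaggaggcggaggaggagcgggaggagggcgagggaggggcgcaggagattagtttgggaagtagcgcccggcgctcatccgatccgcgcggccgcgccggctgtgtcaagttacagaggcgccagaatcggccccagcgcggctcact
Col25a1: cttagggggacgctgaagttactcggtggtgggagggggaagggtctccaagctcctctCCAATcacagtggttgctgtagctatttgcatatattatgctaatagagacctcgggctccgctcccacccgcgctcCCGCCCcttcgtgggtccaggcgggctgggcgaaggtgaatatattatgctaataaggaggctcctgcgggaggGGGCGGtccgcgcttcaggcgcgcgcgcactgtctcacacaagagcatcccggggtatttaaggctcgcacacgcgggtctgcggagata
Over the 38 collagen windows, 60.5% held a GC box, 34.2% a CCAAT box and 13.2% a TATA box, against 35.7%, 37.4% and 13.6% of all 32851 RefSeq windows. The median GC content was 59.8% in collagen windows and 52.7% in all windows. These matches describe letters in the windows and are not binding sites.

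The design poses 1 question, which collagen chains differ between Flk-1+ cells without and with Hoxb6 reporter activity. Of the 32 tested chains, 2 fell past the threshold in Venus-positive cells and 0 rose (limma, Benjamini-Hochberg adjusted p under 0.05 over all 23548 features tested). Both were other chains, namely Col14a1, a FACIT collagen that binds the surface of type I fibrils, and Col13a1, a transmembrane collagen known from neuromuscular junctions. Of all 13926 named genes tested, 1.85% were called lower and 0.984% higher, 2.83% in either direction. Col14a1 and Col13a1 passed the filter on dim signals through the Venus-negative fraction alone, as did Col9a1 and Col24a1, so a lower value was built into the choice of these 4 chains. In bulk samples, fewer cells of a type and less RNA per cell cannot be told apart.

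The other 28 tested chains were well above background on all 4 arrays, and 0 of them were called. At an unadjusted limma p under 0.05, 5 of the 28 were lower and 4 higher, where the same rule took 11.1% and 13.8% of the named genes that were well above background on all 4 arrays. Of those genes, 1.51% were called lower and 0.937% higher. The 28 chains had a median log2 change of -0.27, with 20 negative and 8 positive values, where 48.3% of the comparable genes were negative and their median was 0.01. The fractions did not overlap for 11 lower and 5 higher chains, against 29.2% and 32.1% of the comparable genes. A log2 change over 1 in size was found for 3 of the 28 chains, Col2a1, Col9a2 and Col25a1, and for 7.38% of the comparable genes. Over all 32 tested chains the median was -0.32, and -0.21 without Venus-positive replicate 2. Counts that include the 4 chains say nothing of direction.

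**Figure D1:**
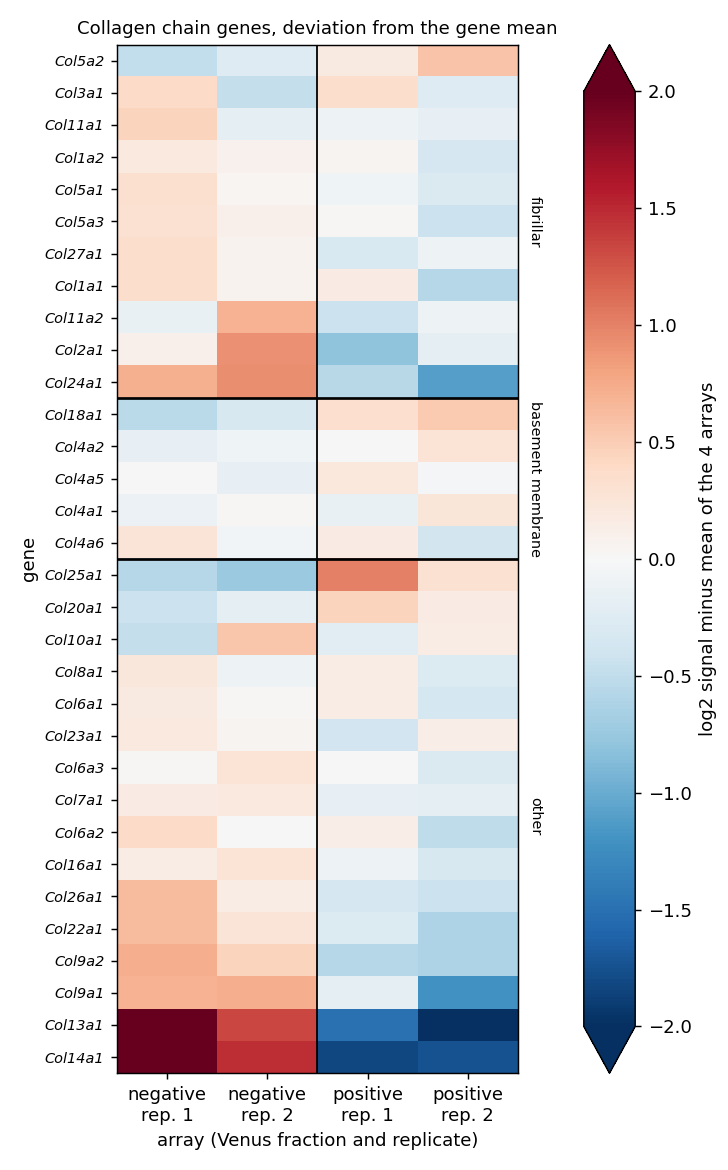
Normalised log2 signal of each of the 32 tested collagen chain genes (rows) on each array (columns), minus the gene's mean over the 4 arrays, with the colour scale limited to 2 in either direction. Rows are ordered by group and by change, and Col14a1 and Col13a1 at the bottom show the deepest contrast between the fractions, with log2 changes of -3.55 and -3.52.

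**Figure D2:**
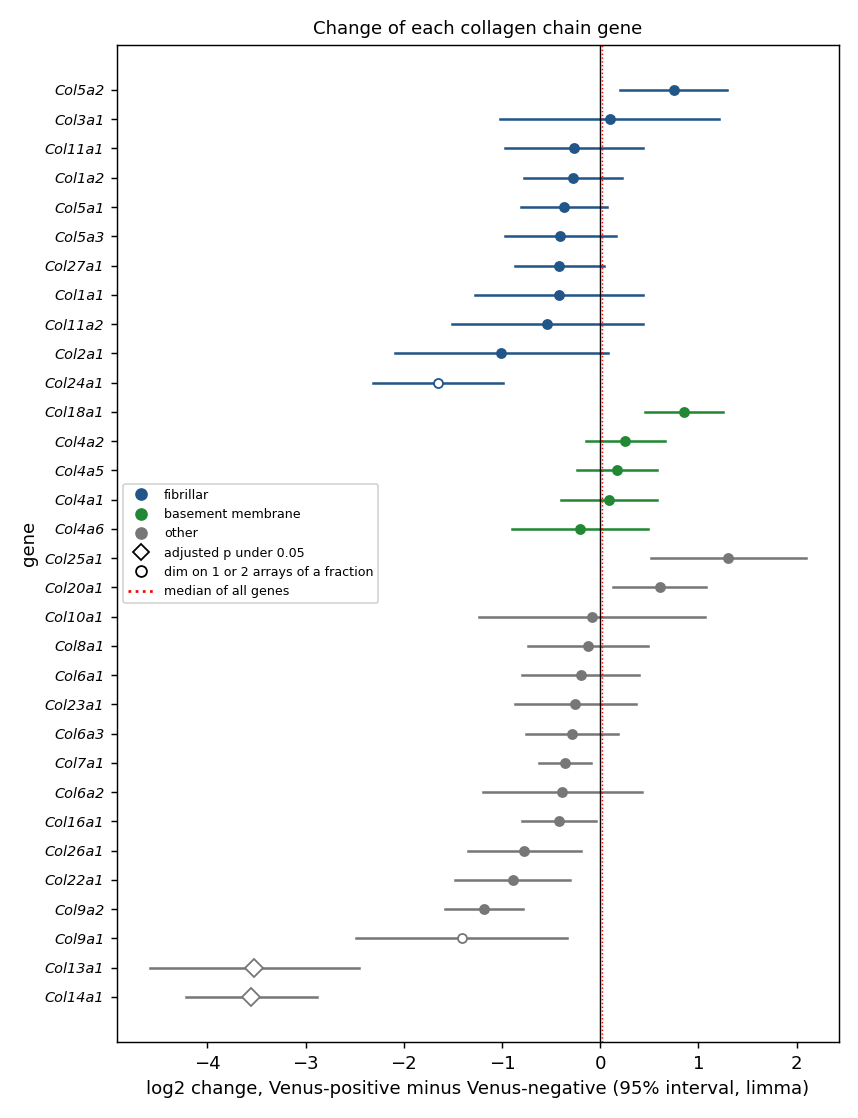
Log2 change (Venus-positive minus Venus-negative, x axis) of each tested chain with its 95% interval from limma. Diamonds mark Col13a1 and Col14a1, the 2 chains past the threshold, and open symbols mark chains that were dim on 1 or 2 arrays of a fraction.

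All 11 fibrillar chains were measured and 0 were called in either direction, while the same test called 1.85% of all named genes lower and 0.984% higher. Of the 10 that were well above background on all 4 arrays, 1 was higher and 0 lower at an unadjusted limma p under 0.05, and their median log2 change was -0.39. With each array centred on its median instead, 1 was called lower (Col24a1), and under the other settings 0 were. The chains of type I collagen, the main protein of bone, skin and tendon, had bright signals in both fractions. Col1a2 lay at 5.36 and 5.26 on the Venus-negative and at 5.23 and 4.83 on the Venus-positive arrays (log2 change -0.28, 95% interval -0.78 to 0.22, adjusted p = 0.410). Its partner chain Col1a1 lay at 2.73 and 2.45 against 2.54 and 1.81 (-0.42, interval -1.27 to 0.44, adjusted p = 0.470). The fractions overlapped for Col1a1 and were separated by a narrow gap for Col1a2. Col3a1, the type III chain of vessel walls and skin, showed no separation by fraction, at 0.11 and -0.75 against 0.08 and -0.53 (log2 change 0.10, interval -1.02 to 1.21, adjusted p = 0.907). Both replicate 1 arrays were higher than both replicate 2 arrays.

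Type V chains regulate the assembly and diameter of type I fibrils. Col5a2 had the largest positive value among the fibrillar chains. Its signals were -2.80 and -2.57 on Venus-negative and -2.14 and -1.74 on Venus-positive arrays, without overlap (log2 change 0.75 ± 0.19 SE, adjusted p = 0.140). The other type V chains had values of the opposite sign, -0.37 for Col5a1 (means in Venus-negative and then Venus-positive cells 1.43 and 1.06, adjusted p = 0.262) and -0.41 for Col5a3 (means -1.37 and -1.78, adjusted p = 0.316). The difference between type V chains was not tested. Col5a2 and Col3a1 are neighbours in the genome, and their changes of 0.75 and 0.10 stand side by side here.

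Chains of cartilage fibrils had negative values. Col2a1, the chain of type II collagen, lay at 0.90 and 1.71 on the Venus-negative arrays and at -0.01 and 0.61 on the Venus-positive arrays (log2 change -1.005 ± 0.38 SE, interval -2.09 to 0.08, adjusted p = 0.234). The fractions did not overlap, but the gap was smaller than the distance between the replicates. Col11a2 (log2 change -0.54, means -3.07 and -3.61, adjusted p = 0.416) and Col11a1 (-0.27, means -3.54 and -3.81, adjusted p = 0.570), whose chains join type II collagen in cartilage fibrils, and Col27a1 (-0.42, means -2.19 and -2.61, adjusted p = 0.236) did not pass. Among cartilage and bone markers, Sox9, the transcription factor that drives cartilage genes, was lower in Venus-positive cells (log2 change -1.18, adjusted p = 0.0395), and Acan, the main cartilage proteoglycan, stood at -2.07 (adjusted p = 0.0927). The summed linear signal of the 5 cartilage and bone markers with a probe was 1.498 and 2.80 times the array's 75th percentile in Venus-negative and 0.987 and 1.17 times in Venus-positive cells. Matn1, the brightest of the 5 on each array, weighed most in this sum. Its log2 change was -0.72 (adjusted p = 0.476), and the fractions overlapped for it. Runx2 and Sp7 were well above background on 0 arrays. The part of such cells in the collagen values was not tested.

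Col24a1, a minor fibrillar chain, had the largest negative value of the group. Its signals were -4.02 and -3.80 on the Venus-negative arrays and -5.29 and -5.84 on the Venus-positive arrays, where it was not well above background. The level in Venus-positive cells was at least 2.29-fold lower (adjusted p = 0.0654). For this bound, the dim arrays were set to the lowest signal of any spot well above background there, or to the gene's own where that was higher. The bound holds for the processed signal only, and with normexp the log2 change was -0.42 (adjusted p = 0.0766). The call was made with median centring (adjusted p = 0.0449).

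Of the 8 basement membrane chains, 5 were measured and 0 were called, with 1 higher and 0 lower at an unadjusted limma p under 0.05, a rule that took 14.1% and 11.9% of all named genes. With normexp background correction, and when limma's variance prior followed the signal, 1 was called higher (Col18a1). The group's median log2 change was 0.17, and 4 of 5 values were positive. Col4a1 and Col4a2, the chains of the type IV network found in nearly all basement membranes, had small differences between the fractions. Col4a1 lay at 4.04 and 4.16 on the Venus-negative and at 4.002 and 4.38 on the Venus-positive arrays (log2 change 0.09, interval -0.40 to 0.58, adjusted p = 0.786). For Col4a2 the signals were 4.37 and 4.46 against 4.53 and 4.81 (0.26, interval -0.15 to 0.66, adjusted p = 0.362). The intervals of both genes reach at most 0.66 upward and -0.40 downward. They rest on the spread of these samples within a fraction, which may be only technical, and do not show that the levels were the same. The genes whose promoter windows share 78 bases thus had log2 changes of 0.09 and 0.26.

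A second neighbouring pair, Col4a5 and Col4a6, encodes type IV chains of the basement membranes of kidney and smooth muscle. Col4a5 had a log2 change of 0.17 (means -3.00 and -2.83, adjusted p = 0.529), and Col4a6 one of -0.21 at 0.657. Col4a6 lay at -2.15 and -2.47 in Venus-negative and at -2.25 and -2.79 in Venus-positive cells, with overlap, and its second probe gave a change of under 0.01 in size (adjusted p = 0.997). Col4a3 and Col4a4, the remaining type IV chains, and Col15a1 were not well above background on both arrays of either fraction.

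Col18a1, the multiplexin whose end fragment is the angiogenesis inhibitor endostatin, had the largest value of the basement membrane group. The signals were 5.48 and 5.69 on Venus-negative and 6.35 and 6.53 on Venus-positive arrays, with a gap larger than the distance between replicates. This was 1.81-fold higher (log2 change 0.86 ± 0.14 SE, adjusted p = 0.0778). The second probe of the gene gave 0.81 ± 0.13 SE (adjusted p = 0.0728). It passed with normexp background correction (log2 change 0.91, adjusted p = 0.0301) and when the variance prior followed the signal (adjusted p = 0.0238). The summed signal of 10 endothelial markers moved the same way. It was 87.4 and 117 times the array's 75th percentile in Venus-negative and 237 and 272 times in Venus-positive cells, and all 10 were well above background in both fractions. Cldn5 (1.86, adjusted p = 0.0840) and Flt1 (0.70, adjusted p = 0.0783), the brightest on each array, weighed most in this sum and were not called. All 10 values were positive, and limma called 3 higher and 0 lower, where 0.984% and 1.85% of all named genes were called. The fractions overlapped for Emcn (0.20, adjusted p = 0.846). The part of endothelial cells in the Col18a1 value was not tested.

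**Figure D3:**
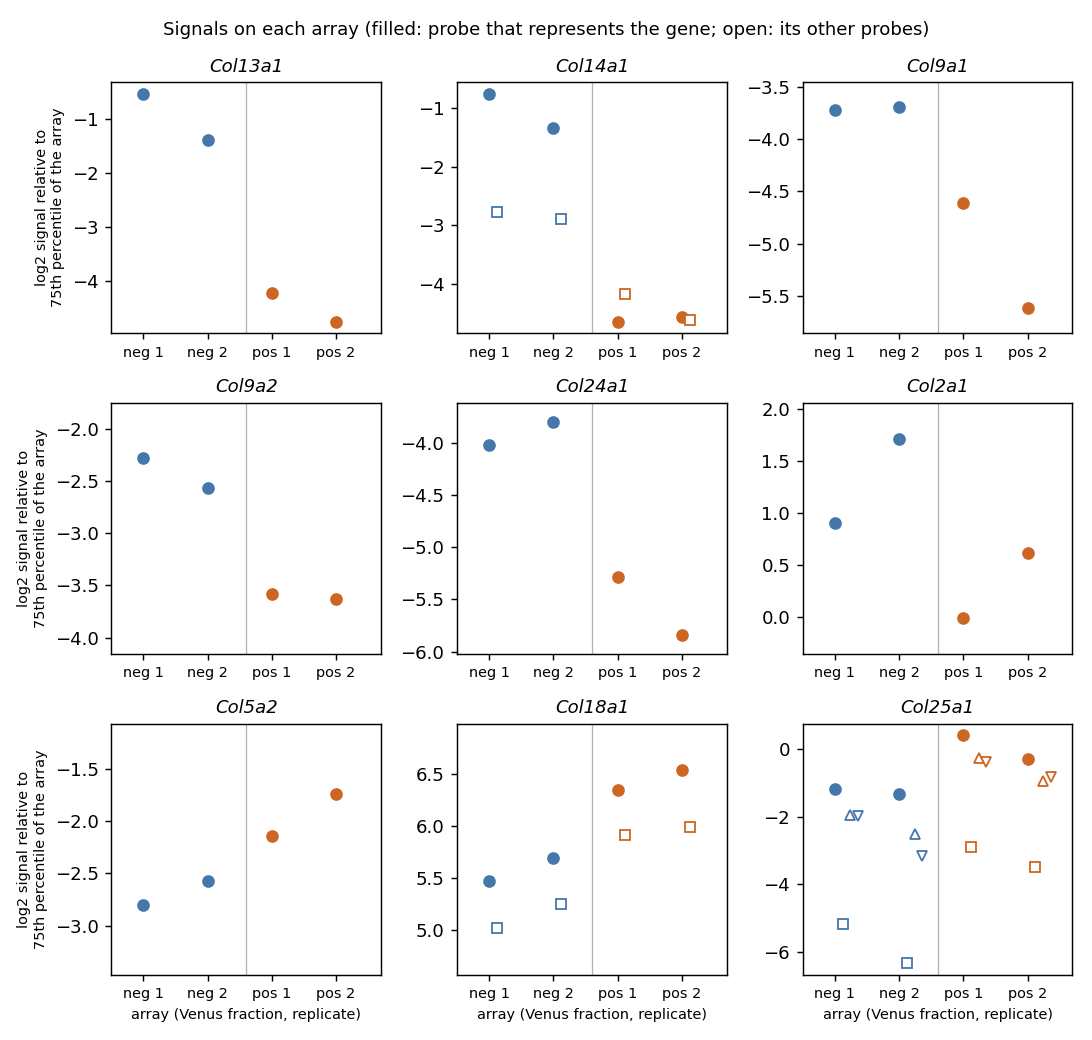
Normalised log2 signal (y axis) on each array (x axis: Venus-negative 1 and 2 in blue, Venus-positive 1 and 2 in orange) for 9 collagen chains, with filled symbols for the representing probe and open symbols for other tested probes; y axes differ between panels. The representing probes of Col13a1 and Col14a1 lie at -1.38 or above in Venus-negative and at -4.21 or below in Venus-positive cells, whereas Col18a1 and Col25a1 are higher in the Venus-positive fraction on each probe shown.

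Of the 24 other chains, 16 were measured, and 2 were called lower and 0 higher, both from the 3 that passed the filter through the Venus-negative fraction alone. Of the remaining 13, 5 were lower and 2 higher at an unadjusted limma p under 0.05 (11.1% and 13.8% of comparable genes), and their median log2 change was -0.28. FACIT collagens, which lie on the surface of fibrils and carry short interrupted helices, included Col14a1. On the probe that represents this gene the Venus-negative arrays read -0.76 and -1.35 and the Venus-positive arrays -4.65 and -4.57. The gap between the fractions was several times the distance between replicates, and the gene was lower in Venus-positive cells (log2 change -3.55 ± 0.24 SE, adjusted p = 0.0349). Only 1 of those arrays held it well above background, so the size of the change is uncertain. A second probe, above background on all 4 arrays, gave a smaller change of -1.55 ± 0.19 SE (adjusted p = 0.0532 with every probe tested), and it passed when only probes above background on all 4 arrays were tested (adjusted p = 0.0487). With normexp background correction the log2 change of the representing probe was -1.58 (adjusted p = 0.0145).

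Col13a1 fell in Venus-positive cells (log2 change -3.52 ± 0.38 SE, adjusted p = 0.0469). Its signals were -0.53 and -1.38 on the Venus-negative arrays and -4.21 and -4.74 on the Venus-positive arrays, on 1 of which it was well above background, so that here too the size is uncertain. The groups lay far apart, though the Venus-negative replicates differed by 0.85. With normexp the log2 change was -1.70 (adjusted p = 0.0254). Neither Col13a1 nor Col14a1 passed when any 1 of the 4 arrays was left out (adjusted p between 0.127 and 0.162) or when the test also took dim probes (adjusted p = 0.155 and 0.143), while the log2 changes stayed between -3.94 and -3.10. Among smooth muscle and pericyte markers, Rgs5, a pericyte gene, was well above background on both Venus-negative and 0 Venus-positive arrays (adjusted p = 0.0265). It passed the filter through the Venus-negative fraction alone, so a lower value was built into its choice. The summed signal of the 7 markers was 62.1 and 38.0 in Venus-negative against 46.6 and 27.2 in Venus-positive cells, with overlap. Tagln (log2 change -0.35, adjusted p = 0.622) and Acta2 (-0.51, adjusted p = 0.551), the brightest of the 7, were not called. Myh11, which defines mature smooth muscle, was well above background on 0 arrays. The part of these cells in the values of Col13a1 and Col14a1 was not tested.

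The other transmembrane collagens had values unlike that of Col13a1 in sign or size, a contrast that was not tested. Col25a1, known for its role in motor innervation, had the largest positive value of all chains. It lay at -1.17 and -1.34 on the Venus-negative and at 0.40 and -0.30 on the Venus-positive arrays, without overlap. It was 2.47-fold higher with an adjusted p of 0.111 (log2 change 1.31 ± 0.28 SE). Of the gene's other probes, those above background on all arrays gave log2 changes of 1.63 and 1.98 (adjusted p = 0.102 and 0.123). One further probe was well above background in Venus-positive cells only and gives no size. For Col23a1, 3 probes gave -0.25, -0.65 and 0.03 and did not agree in sign (means -0.0019 and -0.26, adjusted p = 0.539 for the representing probe). Col17a1, the hemidesmosome collagen of skin, was well above background on 0 arrays.

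Col9a1 and Col9a2 encode chains of type IX collagen, the FACIT of cartilage fibrils, and both had negative values. Col9a2 lay at -2.28 and -2.56 on the Venus-negative and at -3.58 and -3.63 on the Venus-positive arrays, with no overlap. It was 2.27-fold lower, just short of the threshold (log2 change -1.18 ± 0.14 SE, adjusted p = 0.0530). It passed with normexp (adjusted p = 0.0430, at a log2 change of -0.56), when the variance prior followed the signal (adjusted p = 0.0446) and when only probes above background on all arrays were tested (adjusted p = 0.0451). Col9a1 lay at -3.72 and -3.69 against -4.61 and -5.62 and was measured on 1 of the Venus-positive arrays (log2 change -1.41 ± 0.38 SE, adjusted p = 0.146). Col9a1 passed the filter through the Venus-negative fraction alone, so a lower value was built into its choice. Its second probe was well above background on 0 arrays. The third chain, Col9a3, was well above background on 0 arrays.

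The remaining FACIT chains did not pass. Col22a1, known from muscle-tendon junctions, had a value of -0.89 (means -3.42 and -4.31, adjusted p = 0.123) and Col16a1 one of -0.42 (means 1.44 and 1.02, adjusted p = 0.184, with the same value on a second probe). Col20a1 stood at 0.61 (means -1.87 and -1.26, adjusted p = 0.151), with 0.67 on a second probe. Col19a1 was not well above background on any array. Col12a1 is in the RefSeq table, and 0 probes matched it.

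The beaded filament chains of type VI collagen, a component of most connective tissues, were bright, with small differences between the fractions. For Col6a1 the log2 change was -0.20 (interval -0.79 to 0.40, means 3.35 and 3.15, adjusted p = 0.618), for Col6a2 -0.39 (-1.20 to 0.42, means 1.19 and 0.81, adjusted p = 0.480) and for Col6a3 -0.28 (-0.75 to 0.18, means 1.87 and 1.58, adjusted p = 0.378). Col6a1 and Col6a2 are neighbours in the genome. Col6a4 and Col6a6 were not well above background on any array, and Col6a5 was so on 1 array for each of its 2 probes, a different array each time. Col26a1 stood at -0.77 (means 2.07 and 1.298, adjusted p = 0.142). Col7a1, the anchoring fibril chain of skin, had a small but tight difference (log2 change -0.36 ± 0.09 SE, adjusted p = 0.144), with signals of 0.27 and 0.31 against -0.05 and -0.08. Network-forming Col8a1, of vessel walls and the cornea, stood at -0.13 (means -1.90 and -2.03, adjusted p = 0.764), and Col10a1, of hypertrophic cartilage, at -0.08 (means -2.74 and -2.82, adjusted p = 0.922). Col8a2 and Col28a1 were well above background on 0 arrays.

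Replicates of a fraction also differed in many chains. For 23 of 32 chains replicate 2 differed from replicate 1 in the same direction in both fractions, as for 70.2% of all named genes, and for 11 of these the mean replicate difference was larger in size than the change between fractions. This share was close to the 29.5% of all named genes for which the same held. Replicate 2 was lower in both fractions for 16 chains, against 34.5% of all named genes. In the Venus-negative and the Venus-positive fraction, Col3a1 was lower by 0.86 and 0.60, Col1a1 by 0.28 and 0.74, and Col6a2 by 0.39 and 0.64. Col2a1 (0.81 and 0.62 higher) and Col10a1 (1.02 and 0.37 higher) went the other way. The row on the slide goes with the replicate, so that a row and a replicate difference cannot be told apart.

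Markers of stromal cells also differed between replicates. Lum, a fibril-binding proteoglycan of fibroblasts, lay at -0.33 and -0.46 on the replicate 1 arrays and at -2.43 and -2.98 on the replicate 2 arrays. Dcn, a related proteoglycan, was well above background on the replicate 1 arrays only (-2.14 and -2.58, against -5.25 and -6.36). S100a4 (2.08 and 1.69 against 3.97 and 3.23) and the adipocyte gene Adipoq (0.28 and -0.11 against 1.98 and 1.41) ran the opposite way. Between the fractions, the summed signal of the 13 OP9 stromal and fibroblast markers was 29.1 and 33.5 in Venus-negative and 19.9 and 16.6 in Venus-positive cells, without overlap. Cxcl12 and S100a4, the brightest of the 13 on each array, weighed most in this sum. The fractions overlapped for Cxcl12 (log2 change -1.02, adjusted p = 0.384) and for S100a4 (-0.56, adjusted p = 0.745). In both fractions replicate 2 was lower than replicate 1 for Cxcl12 and higher for S100a4, so these differences offset each other in the sum. Of 11 measured markers, 10 had a lower value in Venus-positive cells, against 6700 of all 13926 named genes. Postn went the other way (1.61, adjusted p = 0.251) and was well above background on the Venus-positive arrays only. In limma 0 of the 11 were called, where 1.85% of all named genes were called lower and 0.984% higher. At an unadjusted limma p under 0.05, 2 were lower and 0 higher, a rule that took 11.9% and 14.1% of all named genes. Dpt was well above background on 0 arrays. The sum of 7 adipocyte markers was 7.69 and 16.2 against 6.91 and 11.5, with overlap. What part feeder cells had in the collagen signals was not tested.

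**Figure D4:**
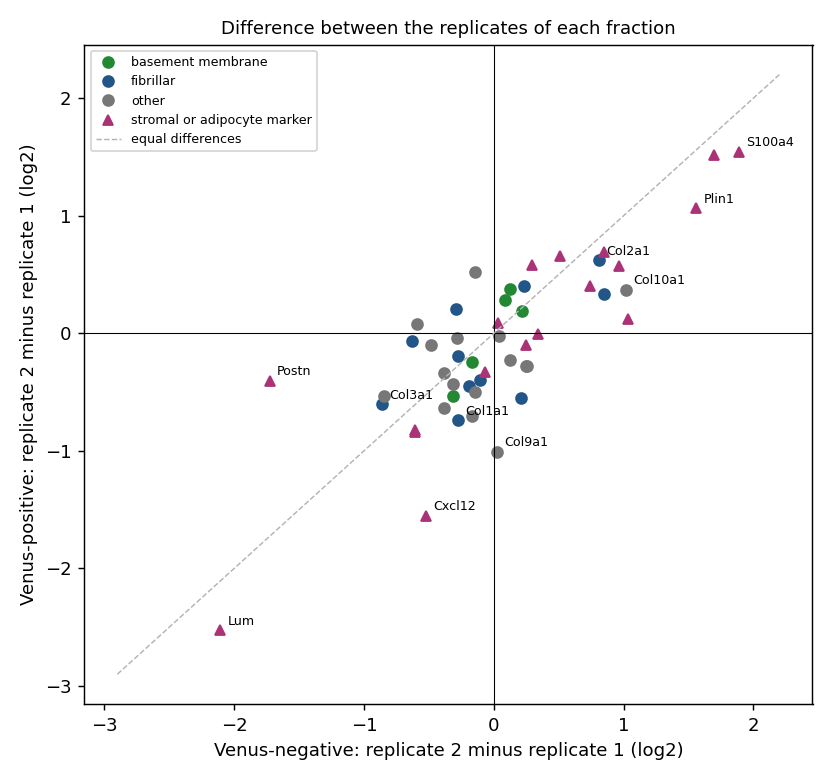
Difference between replicate 2 and replicate 1 in the Venus-negative (x axis) and the Venus-positive fraction (y axis), on the log2 scale, for the 32 tested collagen chains (circles) and the tested stromal and adipocyte markers (triangles). Points near the dashed line differ between replicates by the same amount in both fractions, as Lum (-2.11 and -2.53) and Col3a1 (-0.86 and -0.60) nearly do.

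Further marker lists were summed in the same way. The sum of the 7 Flk-1+ mesoderm markers was 286 and 244 in Venus-negative and 203 and 199 in Venus-positive cells. Of the 6 that were tested, 5 had negative values and 1, Kdr, a positive one (0.44, limma adjusted p = 0.138). Limma called 1 lower, Pdgfra (-1.93, adjusted p = 0.0474), and 0 higher, where 1.85% and 0.984% of all named genes were called. Etv2 lay at 6.48 and 5.89 on the Venus-negative and at 4.52 and 4.85 on the Venus-positive arrays (-1.50, adjusted p = 0.0851). The 11 visceral and parietal endoderm markers summed to 48.8 and 40.05 against 56.1 and 56.9. Of the 8 that were tested, 3 had positive values, namely Sox17 (1.35), Thbd (1.11) and Sox7 (0.99). The other 5 were negative, such as Foxa2 (-1.19), and the median log2 change of the 8 was -0.13. Among the 11 markers, Apoa1 was well above background on 0 arrays. Lama1, a laminin chain that early basement membranes also hold, was bright in both fractions (log2 change -0.13, adjusted p = 0.732). The 7 blood markers summed to 22.3 and 37.2 against 24.1 and 25.7, and Ptprc, the pan-leukocyte marker CD45, was well above background on 0 arrays.

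Collagen chains are hydroxylated, glycosylated and folded in the endoplasmic reticulum, trimmed and crosslinked outside the cell, and bound by other matrix proteins and by receptors. Of 58 genes of these steps, 52 were measured, and 2 rose and 5 fell past the threshold (limma, adjusted p under 0.05), with a median log2 change of -0.05. Of all named genes, 0.984% were called higher and 1.85% lower. Among the 52 measured genes, Loxl4, Optc and P3h2 passed the filter on dim signals through the Venus-negative fraction alone. A lower value was thus built into the choice of these genes, and Loxl4 and Optc are among the 5 that fell.

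Among the 20 synthesis enzymes and chaperones, all measured, 1 rose and 1 fell, where 0.984% and 1.85% of all named genes were called so. Of the 19 well above background on all 4 arrays, 5 were higher and 2 lower at an unadjusted limma p under 0.05. The same rule took 13.8% and 11.1% of comparable genes. Colgalt2, a galactosyltransferase that acts on collagen hydroxylysine, rose 3.68-fold, from -2.07 and -1.91 on the Venus-negative to -0.25 and 0.02 on the Venus-positive arrays (log2 change 1.88 ± 0.15 SE, adjusted p = 0.0355). P4ha2, a catalytic subunit of prolyl 4-hydroxylase, fell 2.01-fold, from 2.33 and 2.32 to 1.28 and 1.35 (adjusted p = 0.0428). The other catalytic subunits of that enzyme did not pass (0.28 for P4ha1, adjusted p = 0.347, and -0.06 for P4ha3, adjusted p = 0.805). P3h2, a prolyl 3-hydroxylase, had a log2 change of -1.25 (adjusted p = 0.213). The shared machinery of the pathway, such as the collagen chaperone Serpinh1 (0.38, adjusted p = 0.203) and the hydroxylase subunit P4hb (-0.17, adjusted p = 0.455), was bright in both fractions and was not called.

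Of the 13 genes of propeptide processing and crosslinking, 12 were measured, 2 fell and 0 rose (1.85% and 0.984% of all named genes). Of those that fell, Loxl4 had passed the filter through the Venus-negative fraction alone. Of the 11 well above background on all 4 arrays, 4 were lower and 0 higher at an unadjusted limma p under 0.05, where the rule took 11.1% and 13.8% of comparable genes. Pcolce2, an enhancer of the proteinase that removes the C-terminal propeptide, fell 7.63-fold, from 0.56 and 0.28 to -2.26 and -2.76 (log2 change -2.93 ± 0.23 SE, adjusted p = 0.0354). With normexp its log2 change was -2.14 (adjusted p = 0.00875). Its relative Pcolce stood at -0.58 (adjusted p = 0.154). Loxl4, a lysyl oxidase-like crosslinking enzyme, was not well above background in Venus-positive cells and was at least 6.41-fold lower there on the processed signal (adjusted p = 0.0402), whereas normexp gave a log2 change of -0.98 (adjusted p = 0.0387). The call was lost when the gene's probes were averaged (adjusted p = 0.0897). Lox itself did not pass (-0.12, adjusted p = 0.803).

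Of the 15 collagen-binding proteins, 12 were measured, and 1 rose and 1 fell (0.984% and 1.85% of all named genes). The gene that fell, Optc, had passed the filter through the Venus-negative fraction alone. Nid1, nidogen-1, which links laminin to type IV collagen, rose 3.13-fold, from 2.97 and 3.05 to 4.81 and 4.51 (log2 change 1.65 ± 0.15 SE, adjusted p = 0.0395), and missed the threshold when its probes were averaged (adjusted p = 0.0576). The 12 measured genes split into 6 positive and 6 negative values. Of the 11 well above background on all 4 arrays, 5 were higher and 0 lower at an unadjusted limma p under 0.05. That rule took 13.8% and 11.1% of comparable genes. The 5 were Nid1, Nid2 (0.39, adjusted p = 0.207), and Hspg2, Pxdn and Sparc, whose values follow. Of the genes that did not pass, Hspg2, perlecan, stood at 0.48 (adjusted p = 0.138), Pxdn, the peroxidasin that crosslinks type IV collagen, at 0.51 (adjusted p = 0.157), Fn1, fibronectin, at -0.05 (adjusted p = 0.813) and Bgn, biglycan, at -0.07 (adjusted p = 0.762). Sparc, which binds collagen and is abundant in early basement membranes, stood at 0.62 (adjusted p = 0.131) and passed with normexp (adjusted p = 0.0454). Optc, opticin, a small proteoglycan named for the eye, was not well above background in Venus-positive cells and at least 47.3-fold lower there on the processed signal (adjusted p = 0.0342), whereas normexp gave a log2 change of -2.93 (adjusted p = 0.00791). Its signals were 0.77 and 0.15 against -5.16 and -5.95.

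Of the 10 collagen receptors, 8 were measured, 1 fell and 0 rose (1.85% and 0.984% of all named genes). All 8 were well above background on all 4 arrays. At an unadjusted limma p under 0.05, 2 were lower and 1 higher, where the rule took 11.1% and 13.8% of comparable genes. Ddr1, a receptor tyrosine kinase activated by collagen, fell 3.21-fold (-2.25 and -1.96 against -3.91 and -3.67, adjusted p = 0.0437), and missed the threshold with quantile normalization (adjusted p = 0.0560). With normexp its log2 change was -0.77 (adjusted p = 0.0351). Ddr2, the receptor for fibrillar collagen, stood at -0.27 (adjusted p = 0.641). Mrc2, an endocytic receptor that clears collagen, was 2.41-fold lower and narrowly missed the threshold (adjusted p = 0.0508). It passed with normexp, median centring, quantile normalization, averaged probes, the variance prior that followed the signal and the filter for all 4 arrays, at adjusted p between 0.0259 and 0.0460. Of the integrin chains that form collagen receptors, Itga2 (1.16, adjusted p = 0.157) and Itga1 (0.69, adjusted p = 0.305) had positive values, Itga11 (-0.36, adjusted p = 0.324) a negative one, and Itgb1 (0.19, adjusted p = 0.377) was bright in both fractions.

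**Figure D5:**
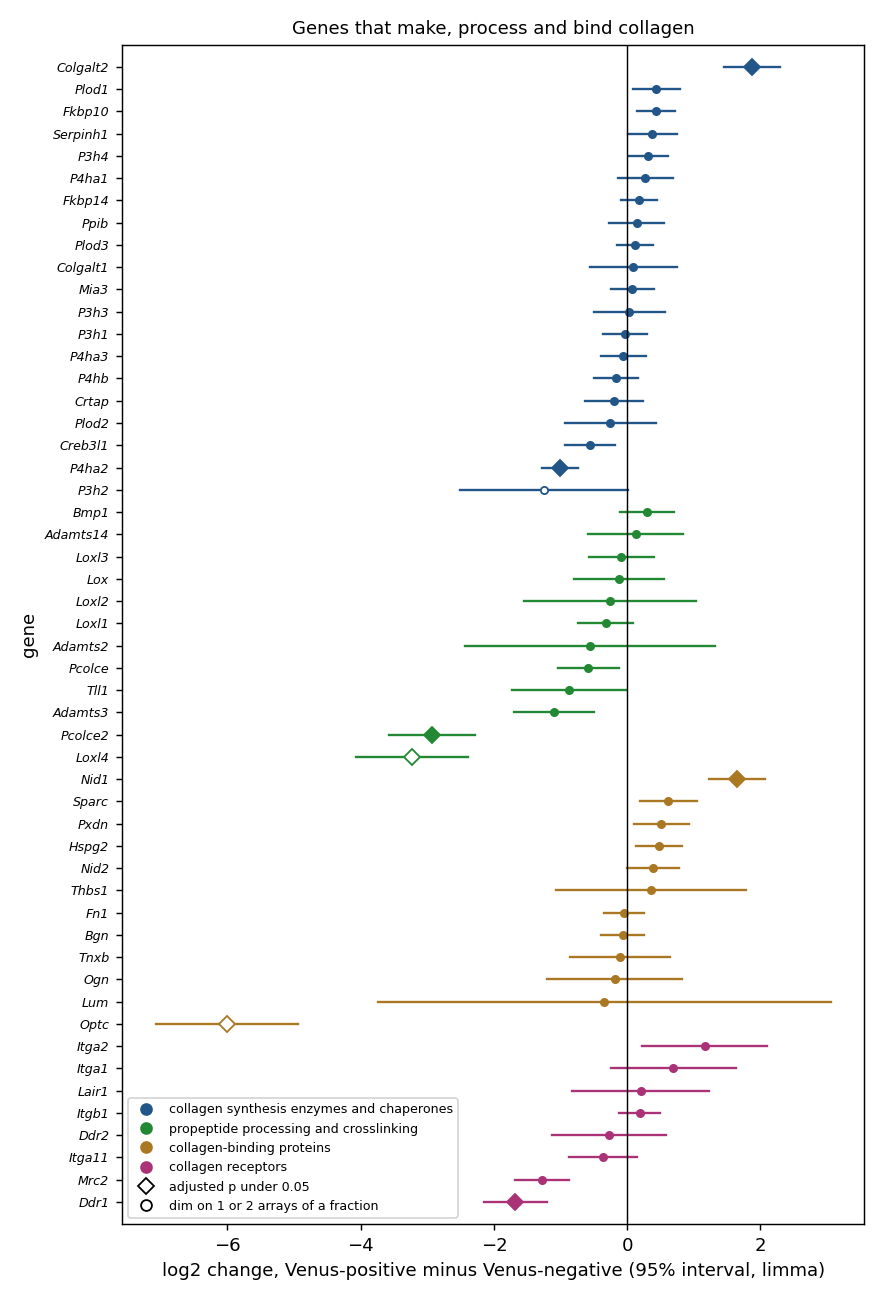
Log2 change (Venus-positive minus Venus-negative, x axis) with its 95% interval from limma for the 52 measured genes that make, process and bind collagen, coloured by list. Diamonds mark the 7 genes past the threshold, of which Colgalt2 and Nid1 lie to the right of 0 and P4ha2, Pcolce2, Loxl4, Optc and Ddr1 to the left; open symbols mark genes that were dim on 1 or 2 arrays of a fraction.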

How the data were processed

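The authors deposited 1 scanner file per array with the intensity of every spot, written by Feature Extraction 10.10.1.1 of Agilent. Per the file headers, the processed signal is background-subtracted and detrended within an array, with no scaling between arrays. The authors' value table holds the same intensity times 1 constant per array (1.98 to 2.44). Of 62976 spots, 59305 were not controls. Outlier spots were left out (152 to 196 per array), log2 signals were centred on each array's 75th percentile, and spots of a probe were averaged. Accessions were matched to symbols through RefSeq (GRCm38.p6; 21465 of 37881 matched 1 symbol), and 28446 of 55681 probes stayed unnamed. A probe was tested where both arrays of a fraction held it well above background (27899 probes, 23548 features). The test used limma 3.58.1 in R 4.3.3, with a Benjamini-Hochberg threshold of 0.05. The fit was also run on simulated data whose spread was drawn from limma's estimate on these arrays. SE is moderated and intervals are 95%. Values of second probes come from a fit of all tested probes.

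The chain groups, 4 pathway lists, 8 marker lists and alternatives (normexp on median spot and background signals, since the files used hold no mean signal, centring, quantile normalization, filters, probe averaging, variance prior, replicate block, the authors' table and leaving out arrays) were chosen with earlier results of these data known. Every tested chain is named, with values on each array for called chains and the 3 largest changes of each group. Values on each array of other chains, and pathway genes neither called nor among the 2 largest changes of their list, were chosen after their values were seen. Figures were drawn with matplotlib 3.10.9.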

Additional observations from a re-analysis of the deposited data

How the results depend on the processing

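The 257 lower and 137 higher named genes became 538 and 491 with normexp background correction, 650 and 597 with a variance prior that followed the signal, and 0 and 0 with dim probes kept. With median centring 259 were higher and the median of all genes moved to 0.08. With the replicate number as a block there were 421 lower and 290 higher genes, and Col13a1 and Col14a1 were both called (adjusted p = 0.0429). Under this block P3h2 (adjusted p = 0.0443) and Mrc2 (0.0437) were called and Loxl4 (0.0511) was not. The labels do not say that the numbers pair samples, and same-numbered arrays deviated together (r = 0.41 over features). Of the collagen chains, 1 was called higher (Col18a1, of the basement membrane chains) with normexp and with the signal-dependent prior, 1 fibrillar chain (Col24a1) was called lower with median centring, and 0 chains, all groups included, were called with dim probes kept, although 9 stood lower and 4 higher at an unadjusted limma p under 0.05. Normexp gave values nearer 0, without a change of call, for Col9a1 (log2 change -0.43), Col22a1 (-0.38), Col5a2 (0.41), Col20a1 (0.33), Col11a2 (-0.30) and P3h2 (-0.49). Of the pathway genes, 0 were called with dim probes kept, 1 was higher with probes averaged, and 4 were higher with the signal-dependent prior.

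Leaving out any 1 array gave 0 calls in either direction among all named genes, the chains and the pathway genes, with between 6 and 9 chains lower and between 1105 and 1514 named genes higher at an unadjusted p under 0.05. The median of the chains then ranged from -0.44 to -0.21. Some chains that were not called changed sign: Col4a1 ranged from -0.10 to 0.28, Col4a6 from -0.48 to 0.060, Col3a1 from -0.33 to 0.53, Col11a1 from -0.58 to 0.047, Col10a1 from -0.59 to 0.43, Col8a1 from -0.34 to 0.089, Col6a1 from -0.45 to 0.049 and Col23a1 from -0.51 to 0.0067. Under the other settings 0 tested chains changed sign. Col13a1 could not be tested where all 4 arrays had to be well above background. Arrays limit precision through their number, and dim signals carry only bounds.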
